A study of Homo sapiens with 12 samples.

Results

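Cystine uptake and glutathione synthesis was followed in midbrain-patterned human neural progenitors through 9 genes: SLC7A11, SLC3A2, GCLC, GCLM, GSS, GSR, CTH, CBS and GPX4. The genes were taken by name from the 25718 genes in the deposited tables. Where a gene had several RefSeq transcripts, the transcript was chosen by its mean count over the 12 samples, the highest being used, and the group a sample belonged to played no part in that choice. The samples were H9 human embryonic stem cells carrying a lentiviral vector (multiplicity of infection 50) from which doxycycline switches on either miR-10a or miR-10b. Cells were expanded on mouse embryonic fibroblasts, patterned towards ventral midbrain with CT0.8 and Shh at 200 ng/ml over 14 days of neural induction, and harvested on day 14. The 4 groups were cells with the miR-10a vector given doxycycline from day 11, the same kind of cells without it (miR-10a control), and the corresponding miR-10b doxycycline and miR-10b control groups, with 3 replicates each. All groups carried a vector. Cells with a vector lacking miR-10 were not analysed here, so that an effect of doxycycline itself and an effect of miR-10 cannot be told apart.

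Glutathione is a tripeptide of glutamate, cysteine and glycine and the most abundant thiol antioxidant of human cells. Cysteine usually limits its synthesis. Many cells take it up in its oxidised form, cystine, through an exchanger made of the transport subunit SLC7A11 (xCT) and the chaperone subunit SLC3A2, and some can also make it from methionine through the transsulfuration enzymes CBS and CTH. Glutamate-cysteine ligase, composed of the catalytic subunit GCLC and the modifier subunit GCLM, joins glutamate and cysteine, and GSS adds glycine. GSR returns oxidised glutathione to its reduced form, and GPX4 uses glutathione to reduce lipid peroxides in membranes. The transcription factors NRF2 and ATF4 are known to act on several of these genes.

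The libraries held 10545487 to 14165426 counts, and every control sample was deeper than every doxycycline sample of its vector. Levels are given as CPM, that is, relative to the library's total. The labels held for the induced precursors. MIR10A was at 711 to 731 CPM in the miR-10a doxycycline samples and at 0.641 to 1.37 CPM in their controls, and MIR10B was at 2541 to 2662 CPM in the miR-10b doxycycline samples and at 2.89 to 4.45 CPM in theirs. Among replicates, miR-10b doxycycline replicate 2 stood apart: its 2 comparisons within the group gave a chi-square per degree of freedom of 3.17 and 4.11, against 1.22 to 1.93 for the other 10 replicate pairs. The calls of the 6 tested members were the same without it. Neural progenitor markers (8 of 9 with a mean above 10 counts) and ventral midbrain floor plate markers (8 of 10) were detected. OTX2, LMX1B and PAX6, each listed with several transcripts, were at or below that mean.

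The way reads were counted decides which of the 9 genes can be read. Reads that fit several transcripts of a gene were apparently left out, since genes with 1 transcript, 63.0% of all genes, held 92.8% of the counts. SLC7A11, GCLM and GSS are listed with 1 transcript and had mean counts of 1464, 208 and 954. SLC3A2, GCLC and GPX4 are listed with 5, 2 and 3 transcripts, and the transcripts used had mean counts of 49.8, 34.9 and 77.6. These 6 genes passed the filter of a mean above 10 counts. CBS, with a mean of 4.25, did not, and GCLC was the member nearest above the filter. CTH (3 transcripts) and GSR (4 transcripts) had no count in any of the 12 samples. A count of 0 allows up to 3 counts per library, or 0.212 to 0.284 CPM (counting error only), for reads that fit a single transcript, and says nothing about reads their transcripts share. A low count of such a gene therefore does not show whether its expression was low.

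The sequences through which miR-10 could pair with these mRNAs are shown first, since the vectors were made to express it. The mature hsa-miR-10a-5p (RefSeq, GRCh38.p14, chr17:48579904-48579926, minus strand) is printed with its seed, bases 2 to 8, in capitals. hsa-miR-10b-5p is named only.

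hsa-miR-10a-5p: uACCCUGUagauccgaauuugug

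The complement of that seed was searched in the longest 3′UTR of each gene (GENCODE 44 on GRCh37, the build of hg19) as ACAGGGTA (8mer), ACAGGGT (7mer-m8), CAGGGTA (7mer-A1) and CAGGGT (6mer), on the mRNA strand only, each longer form containing a shorter one. Matches other than a 6mer were found in the 3 genes below, which are all on the minus strand of their chromosomes. Each site is shown in its surroundings with the match in capitals.

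SLC7A11: taccttgtgtgACAGGGTAttattacagca

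GCLM: ggcctaggtatCAGGGTAatgtatataca

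GSS: tgggtatagctCAGGGTAagctgctctga

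The site of SLC7A11 (gene at chr4:139085251-139163503) was an 8mer (chr4:139087516-139087523) that started at position 5590 of a 3′UTR of 7862 bases. GCLM (chr1:94350755-94375012) had a 7mer-A1 (chr1:94354212-94354218) at position 331 of 3794 bases. These lengths and positions belong to the longest annotated 3′UTR, which need not be that of the counted transcript. For GCLM it is longer than the whole counted transcript, NM_002061, of 3074 bases. Whether the counted transcripts hold the sites was not tested. GSS (chr20:33516235-33543830) had a 7mer-A1 (chr20:33516412-33516418) at position 1059 of 1230 bases. GSR held a 6mer only. No match was found in SLC3A2, GCLC, CTH, CBS or GPX4, whose 3′UTRs ran from 236 to 1418 bases. For comparison, 9277 genes of the fit had a 3′UTR in that annotation, and their best match was an 8mer in 2.73%, a 7mer-A1 in 5.14% and a 6mer in 21.3%, and 56.2% had none. These shares were not matched for 3′UTR length. A longer 3′UTR has more positions for a match, and those of SLC7A11 and GCLM were longer than those of the members without one. The same 7mer-A1 form thus stood in GCLM and GSS, whose levels are described separately below. A match is a letter match and not a measured site.

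SLC7A11, the cystine-transporting subunit, was lower with doxycycline in both vectors. In the miR-10a control samples (replicates 1 to 3) it was at 150.0, 156.4 and 159.8 CPM, and in the miR-10a doxycycline samples at 125.1, 123.1 and 144.5 CPM. The lowest control thus lay above the highest doxycycline sample. In the miR-10b control samples it was at 106.4, 101.9 and 111.9 CPM, and in the miR-10b doxycycline samples at 81.0, 78.8 and 83.9 CPM, again without overlap. The mean fell from 155 ± 4.99 to 131 ± 11.8 CPM (SD, n = 3 each) with miR-10a, which is 15.8% lower. With miR-10b it fell from 107 ± 5.01 to 81.2 ± 2.57 CPM (SD, n = 3 each), which is 23.9% lower. In edgeR's quasi-likelihood test fitted across all genes, the log2 fold change was -0.25 (SE 0.047, adjusted p = 0.00174) with miR-10a and -0.39 (SE 0.052, adjusted p = 6.5e-07) with miR-10b. Averaged over both vectors, it was -0.32 (SE 0.035, adjusted p = 1.4e-08), or 0.800-fold with a 95% confidence interval of 0.762 to 0.841. Without miR-10a doxycycline replicate 2 the adjusted p with miR-10a was 0.0457, the highest of the 12 fits that left out a sample.

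GCLM, the modifier subunit of glutamate-cysteine ligase, had the larger estimate of the 2 genes that fell. It was at 21.1, 19.8 and 21.6 CPM in the miR-10a control samples and at 13.2, 14.6 and 16.1 CPM in the miR-10a doxycycline samples. It was at 20.7, 19.0 and 19.2 CPM in the miR-10b control samples and at 11.6, 10.7 and 13.1 CPM in the miR-10b doxycycline samples. All 6 control samples lay above all 6 doxycycline samples, whichever vector they carried. The means were 20.8 ± 0.884 and 14.6 ± 1.45 CPM with miR-10a (29.7% lower with doxycycline), and 19.6 ± 0.907 and 11.8 ± 1.18 CPM with miR-10b (39.9% lower; SD, n = 3 each). The log2 fold change was -0.51 (SE 0.090, adjusted p = 7.5e-04) with miR-10a, -0.73 (SE 0.093, adjusted p = 3.3e-07) with miR-10b and -0.62 (SE 0.065, adjusted p = 5.8e-09) over both vectors, the last being 0.651-fold with a 95% interval of 0.594 to 0.713. These samples are bulk cultures, in which fewer cells of a type and less RNA per cell cannot be told apart.

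**Figure D1:**
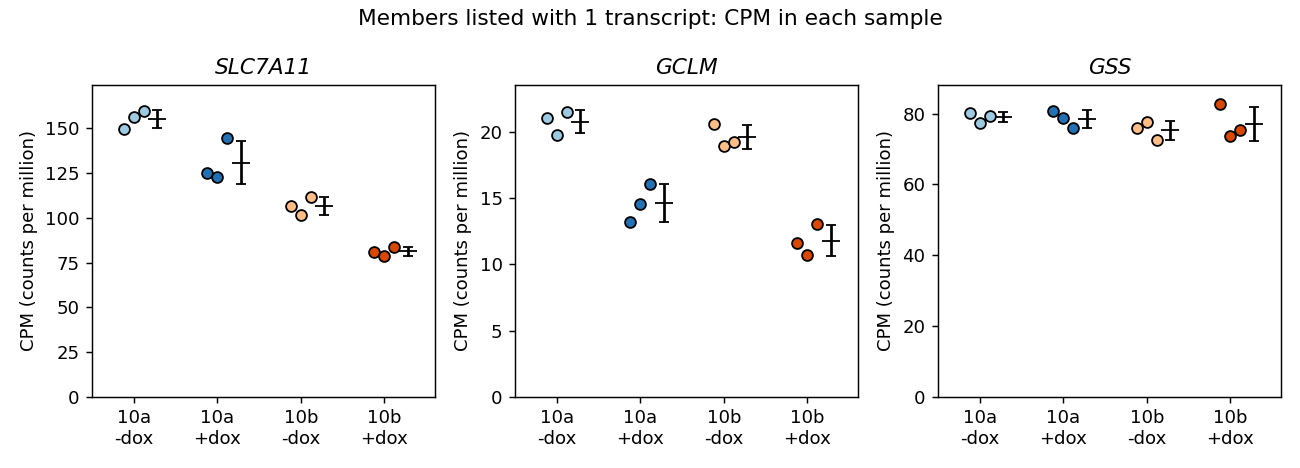
CPM (y axis, from 0) of SLC7A11, GCLM and GSS, the genes listed with 1 transcript, in each of the 12 samples. Points are samples by group (10a or 10b vector, -dox control or +dox doxycycline), and the bar beside them is the mean ± SD of 3 replicates. SLC7A11 was lower in each group than in the group to its left, GCLM separated all control samples from all doxycycline samples, and GSS stayed between 72.4 and 82.6 CPM.

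GSS, which carries out the last step of glutathione synthesis, gave values of similar size in all 4 groups. It was at 80.3, 77.4 and 79.4 CPM in the miR-10a control samples and at 80.8, 78.7 and 76.0 CPM with doxycycline. It was at 75.9, 77.6 and 72.4 CPM in the miR-10b control samples and at 82.6, 73.6 and 75.3 CPM with doxycycline. The groups overlapped with either vector. Over both vectors the log2 fold change was 0.01, with a 95% interval of -0.06 to 0.08 (adjusted p = 0.862). With 801 to 1097 reads per sample, GSS had a narrower interval than the other genes that did not pass the test.

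GCLC (chr6:53362139-53481768 on GRCh37), the catalytic partner of GCLM, was measured on few reads. Its transcript NM_001498 held 32, 50 and 32 reads in the miR-10a control samples and 35, 22 and 34 with doxycycline, and these overlapped. In the miR-10b control samples it held 30, 34 and 32 reads (2.38 to 2.52 CPM), and in the miR-10b doxycycline samples 43, 32 and 43 reads (2.75 to 3.62 CPM), so that on the CPM scale every doxycycline sample was above every control. The log2 fold change was -0.11 with miR-10a (95% interval -0.54 to 0.33, adjusted p = 0.918) and 0.44 with miR-10b (0.02 to 0.87, adjusted p = 0.160). Neither passed the test. The subunits of the ligase thus gave unlike estimates, although the depth of GCLC leaves a fall of the size seen for GCLM with miR-10a within its interval.

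SLC3A2 (chr11:62623476-62656352 on GRCh37), the chaperone subunit of the exchanger, which also serves other amino acid transporters, did not pass the test either. Its most counted transcript, NR_037193, carries a noncoding RefSeq accession and held 63.5% of the reads counted on its 5 transcripts. It held 41, 54 and 68 reads in the miR-10a control samples, 58, 49 and 38 with doxycycline, 42, 55 and 40 in the miR-10b control samples and 56, 55 and 42 with doxycycline. The groups overlapped with either vector, and the log2 fold change over both was 0.18 (95% interval -0.10 to 0.45, adjusted p = 0.444). When the reads of all 5 transcripts were summed, the value with miR-10a turned from 0.05 to -0.03.

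GPX4 (chr19:1103981-1106790 on GRCh37), which reduces lipid peroxides, held 97, 77 and 57 reads in the miR-10a control samples and 80, 81 and 68 with doxycycline, and 80, 68 and 98 reads in the miR-10b control samples and 85, 70 and 70 with doxycycline. Control samples spanned a wider range than doxycycline samples, and the groups overlapped. The log2 fold change over both vectors was 0.11 (95% interval -0.12 to 0.34, adjusted p = 0.594). CBS, the first transsulfuration enzyme, held 1 to 8 reads per sample. Its counts were 2, 1 and 5 in the miR-10a control samples, 5, 8 and 6 with doxycycline, 5, 3 and 4 in the miR-10b control samples and 2, 7 and 3 with doxycycline. In CPM every miR-10a doxycycline sample (0.453 to 0.662) was above every miR-10a control (0.0706 to 0.401), and the miR-10b groups overlapped. CBS was outside the main test. In the fit without a filter its log2 fold change with miR-10a was 1.42 (95% interval 0.24 to 2.59, adjusted p = 0.432) and with miR-10b 0.14 (-1.05 to 1.34, adjusted p = 0.990), and neither passed.

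**Figure D2:**
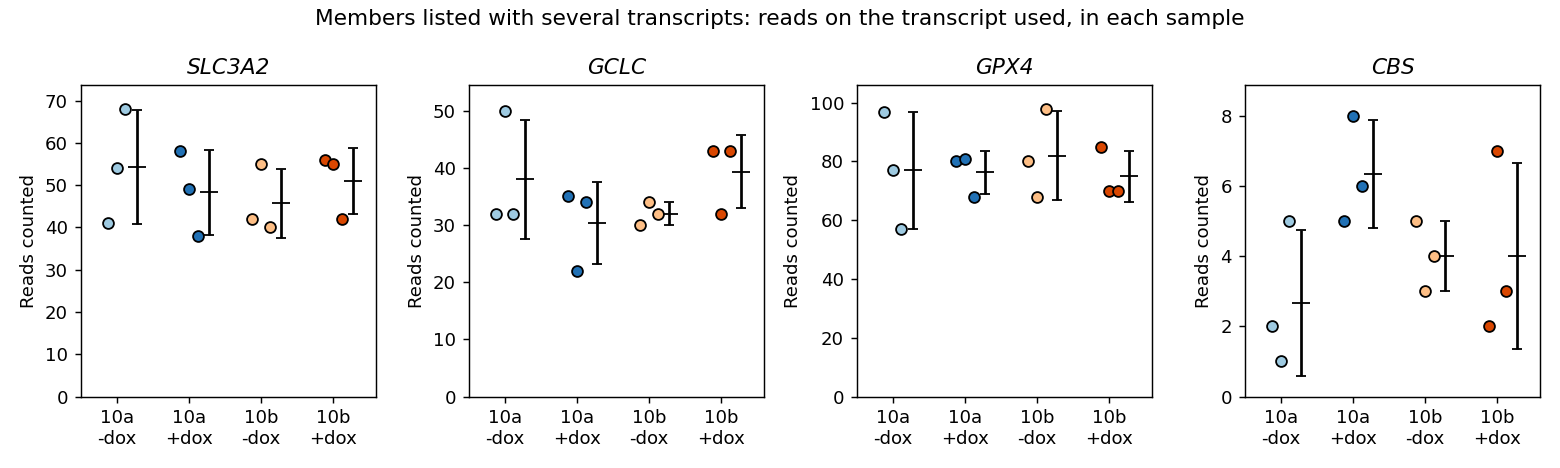
Reads counted (y axis, from 0) on the transcript used of SLC3A2, GCLC, GPX4 and CBS in each of the 12 samples. Groups and bars (mean ± SD of 3 replicates) are as for the genes with 1 transcript. CBS stays at 1 to 8 reads, and for the other 3 genes the reads of doxycycline and control samples overlap with each vector.

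Of the 6 members tested, 2 passed the threshold with miR-10a, and both were lower (SLC7A11 and GCLM). Of the 11451 genes tested, 1.21% passed and 0.742% passed lower. That background of 139 genes ranged from 78 (without miR-10a doxycycline replicate 1) to 268 (without miR-10b doxycycline replicate 2) with a sample left out, and was 272 in a fit of the 6 miR-10a samples alone, while the 2 members passed in each of these fits. With miR-10b the same 2 members passed, both lower, beside 15.3% of all tested genes in either direction and 7.15% lower. Over both vectors, again 2 of 6 passed, both lower, beside 13.9% and 6.22%. The median log2 fold change of the 6 members was 0.06 over both vectors, beside 0.01 over all tested genes, since the 4 members that did not pass had estimates above 0. Every doxycycline sample was below every control in 2 of the 6 members with miR-10a (7.75% of all tested genes), in 2 with miR-10b (12.3%), and in the same 2 with each vector (2.95%). The reverse separation, seen for GCLC with miR-10b, was not counted over all tested genes. The split of all calls into higher and lower depended on the scaling. Over both vectors it was 878 higher and 712 lower with total counts, 665 and 852 with TMM factors, and 459 and 740 in DESeq2. With DESeq2 the split was 35 and 90 in place of 54 and 85 with miR-10a, and 498 and 808 in place of 937 and 819 with miR-10b. SLC7A11 and GCLM were lower and past the threshold under all of these. The members were chosen with earlier results of these data known. The shares above therefore do not test whether this set holds more called genes than others.

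**Figure D3:**
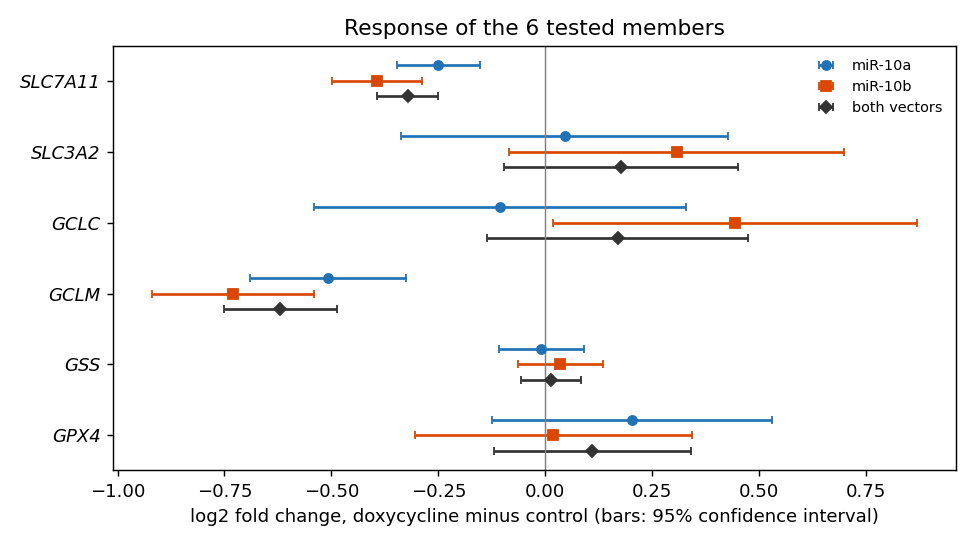
Log2 fold change of doxycycline minus control (x axis) for the 6 tested genes, with miR-10a (circles), miR-10b (squares) and averaged over both vectors (diamonds). Bars are 95% confidence intervals of edgeR's fit. The intervals of SLC7A11 and GCLM lie below 0 in all 3 estimates, while the miR-10b estimate of GCLC is the only other one whose interval does not reach 0.

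Whether the effect of doxycycline differed between the 2 vectors was tested as the difference of the 2 effects. With doxycycline the mean of MIR10B was 2619 CPM with the miR-10b vector, and that of MIR10A was 724 CPM with the miR-10a vector. The test therefore does not compare the 2 vectors at equal precursor levels. Mature miR-10a and miR-10b were not measured in these libraries. None of the 6 members passed in edgeR's quasi-likelihood test or in DESeq2, and 1 (SLC7A11) had an unadjusted p under 0.05. The background was 1.96% of all tested genes. For SLC7A11 the log2 effect with miR-10b was lower by 0.14 (difference -0.14, 95% interval -0.29 to -0.00061, adjusted p = 0.375). For GCLM the difference was -0.22 (-0.49 to 0.04, adjusted p = 0.485) and for GCLC 0.55 (-0.06 to 1.16, adjusted p = 0.445). For SLC7A11 and GCLM these intervals run from about 0 to a size close to the effect with miR-10a, so that the effects of the 2 vectors are not shown to be alike or unlike.

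The uninduced cultures already differed in SLC7A11. The miR-10b control samples, at 101.9 to 111.9 CPM, all lay below the miR-10a control samples, at 150.0 to 159.8 CPM. Their mean was 31.3% lower (log2 difference -0.54, SE 0.048, adjusted p = 3.3e-11 in edgeR's quasi-likelihood test). This difference between cultures without doxycycline was larger than the estimate for doxycycline with either vector. SLC7A11 was the only member of 6 to pass here, beside 14.1% of all tested genes in either direction and 6.72% lower. How many of all tested genes separated these control samples completely was not counted. GCLM differed by -0.08 (95% interval -0.25 to 0.08, adjusted p = 0.594) and GSS by -0.07 (-0.17 to 0.03, adjusted p = 0.408). Over the 4 groups the order of SLC7A11 was therefore miR-10a control, miR-10a doxycycline, miR-10b control and miR-10b doxycycline, with no overlap between neighbours. The vector and the culture that carried it cannot be told apart in this comparison, which uses the same control samples as the comparisons above. The precursors also differed between these cultures, on few reads. In edgeR's quasi-likelihood test MIR10B was 4.27-fold in the miR-10b control samples relative to the miR-10a ones (adjusted p = 4.9e-08). MIR10A was 0.0604-fold (adjusted p = 5.4e-06). The part of the precursors in the SLC7A11 difference was not tested.

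Markers of other cell types were read in the same samples. The summed CPM of 6 pluripotent stem cell markers was 1644 to 1722 in the miR-10a control samples, 1527 to 1572 in the miR-10a doxycycline samples, 1231 to 1259 in the miR-10b control samples and 997 to 1010 in the miR-10b doxycycline samples, the same order as SLC7A11. LIN28A, an RNA-binding protein that blocks let-7 maturation, made up 89.4% to 91.3% of that sum, so that the order is that of LIN28A. The study names LIN28A as a miR-10 target that fell when either miR-10a or miR-10b was overexpressed. DPPA4, the other marker of this list with many counts, was at 146 ± 4.78 and 147 ± 7.38 CPM in the miR-10a control and doxycycline samples and at 108 ± 2.73 and 105 ± 5.65 CPM in the miR-10b ones (SD, n = 3 each), differing between the vectors and by less than the spread between replicates with doxycycline. DNMT3B was at 1.05 to 1.40 CPM on average in the 4 groups. NANOG was at 0 in all samples, and POU5F1 and TDGF1 were at or near 0, each being listed with several transcripts. The summed CPM of 6 mesenchyme or fibroblast markers was 96.1 to 98.3, 97.1 to 109.8, 254 to 277 and 204 to 219 in the same order of groups, which is not the order of SLC7A11. Neuron markers (3 of 8 above a mean of 10 counts) summed to 54.9 to 56.7, 55.3 to 63.5, 50.9 to 54.5 and 59.5 to 62.3 CPM. All 5 astrocyte markers stayed at or below a mean of 10 counts. The part of any of these, or of sequencing depth, in the results for SLC7A11 and GCLM was not tested.

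Among the 6976 genes with a mean of at least 100 counts, the 5 whose log2(CPM + 1) followed SLC7A11 most closely over the 12 samples were ARAP3, FGFBP3, LIN28A, TIAM1 and CHD1, with Pearson's r of 0.982, 0.978, 0.971, 0.970 and 0.970. These r values describe 4 groups in the same 12 libraries and carry no test. FGFBP3, a binding protein of fibroblast growth factors, fell through 670, 560, 443 and 304.0 CPM in the order of groups above. ARAP3, a GTPase-activating protein, fell through 43.1, 38.7, 32.7 and 25.4 CPM. The r of GCLM with SLC7A11 was 0.707 and that of GSS 0.243.

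Levels could be compared between genes only per length and only for the 3 genes with 1 transcript. In the miR-10a control samples GSS was at 41.6 ± 0.766, SLC7A11 at 16.1 ± 0.517 and GCLM at 6.77 ± 0.288 CPM per kilobase of transcript (SD, n = 3). In the miR-10b doxycycline samples the corresponding values were 40.6 ± 2.53, 8.42 ± 0.267 and 3.84 ± 0.383. The order of the 3 genes was the same in all 4 groups, and their ranges did not meet.

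The region before the start of GCLM is shown because NRF2 acts on its known targets through the antioxidant response element. It comprises 300 bases, 250 before the start and 50 after it (RefSeq, GRCh38.p14, chr1:93909381-93909680, minus strand), with the match in capitals.

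GCLM: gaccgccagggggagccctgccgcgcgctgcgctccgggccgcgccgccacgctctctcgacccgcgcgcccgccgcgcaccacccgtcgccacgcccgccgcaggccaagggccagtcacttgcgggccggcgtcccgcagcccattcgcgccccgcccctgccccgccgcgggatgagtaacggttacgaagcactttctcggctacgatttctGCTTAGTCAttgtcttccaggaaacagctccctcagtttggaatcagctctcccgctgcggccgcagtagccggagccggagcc

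The capitals mark a match to TGACNNNGC on the opposite strand, 34 bases before the start. GCLM, GCLC and CTH have 1 window in that table, and SLC3A2, CBS and GPX4 have 3 each, for different starts. The motif was also in 1 of the 3 windows of SLC3A2 (37 bases before the start, match TGACTCAGC on the same strand) and in 1 of the 3 of CBS (83 bases before the start), and those of GCLC, CTH and GPX4 did not. The motif was in 13.3% of all 35116 RefSeq promoter windows of this length, counted by window and with both strands searched. The amino acid response element, searched as TGATGNAA on both strands, was in 3.62% of them and, of these 6 genes, in SLC3A2 only. The promoters of SLC7A11 and GSS are named only. A match is a description of the letters, not of binding.

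Genes of neighbouring pathways were read from lists, which were also chosen with earlier results of these data known. In the NRF2 list, which holds NFE2L2, KEAP1 and known target genes, 0 of 17 tested genes passed over both vectors in edgeR's quasi-likelihood test or in DESeq2, and 0 had an unadjusted p under 0.05. With miR-10a and with miR-10b 0 of 17 passed in either tool, with 1 and 2 genes at an unadjusted p under 0.05. Over all tested genes 1.21% passed with miR-10a, 15.3% with miR-10b and 13.9% over both vectors. In the ATF4 list 5 of 18 tested genes were lower over both vectors and 0 were higher, and the same counts were found with TMM factors and in DESeq2. Over all tested genes 6.22% were lower. With miR-10a 1 of the 18 was lower and 0 were higher, and with miR-10b 6 were lower and 1, AARS, was higher (log2 fold change 0.11, adjusted p = 0.024), a call not made with TMM factors or in DESeq2. Between the uninduced cultures 7 of the 18 were lower with the miR-10b vector. The shares of all tested genes that were lower were 0.742% with miR-10a, 7.15% with miR-10b and 6.72% between the uninduced cultures. Over both vectors the 4 genes of the ATF4 list with the smallest adjusted p were SLC7A1, STC2, SLC7A5 and PHGDH. SLC7A1 is a transporter of cationic amino acids, and STC2 is a secreted stress-induced glycoprotein. SLC7A5 pairs with SLC3A2 to carry large neutral amino acids, and PHGDH is the first enzyme of serine synthesis. SLC7A1 fell from 327 ± 2.41 to 299.5 ± 2.94 CPM with miR-10a and from 290.5 ± 7.15 to 199.6 ± 3.54 CPM with miR-10b (SD, n = 3 each). STC2 was at 18.7 ± 0.296 and 15.0 ± 1.93 CPM with miR-10a and at 18.1 ± 1.16 and 12.1 ± 0.512 CPM with miR-10b, a log2 fold change of -0.45 over both (adjusted p = 5.1e-06). With miR-10a SLC7A5 was at -0.03 (adjusted p = 0.833) and PHGDH at -0.01 (adjusted p = 0.968). When the effects of the 2 vectors were tested against each other, 1 of the 18 passed, with the lower effect with miR-10b. In DESeq2 2 were called, and the share of all tested genes in the main fit was 1.96%. ATF4 itself, listed with 2 transcripts, had a log2 fold change of 0.19 (adjusted p = 0.155). The median of the ATF4 list was -0.05 and that of the NRF2 list 0.02, beside 0.01 over all tested genes.

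Of 13 tested amino acid transporters other than the members, 3 were lower over both vectors and 0 were higher. They were SLC7A1 (log2 fold change -0.33, adjusted p = 3.3e-13), SLC38A2 (-0.29, adjusted p = 5.2e-08) and SLC7A5 (-0.13, adjusted p = 9.8e-04). Over all tested genes 6.22% were lower. SLC7A1 and SLC7A5 were also counted among the lower genes of the ATF4 list. SLC38A2 is a sodium-coupled carrier of small neutral amino acids. SLC38A2 was at 521 ± 28.9 and 477 ± 15.5 CPM with miR-10a, where it did not pass (adjusted p = 0.249), and fell from 531 ± 19.8 to 389 ± 42.0 CPM with miR-10b (adjusted p = 6.7e-09). The other 10 tested transporters had fold changes above those of these 3.

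The counts of the other lists are to be read against the 13.9% of all tested genes that passed over both vectors. Of 20 tested genes that use and recycle glutathione, 1 was higher and 0 were lower over both vectors. This gene, GGT7, a member of the gamma-glutamyltransferase family, had a log2 fold change of 0.10 (adjusted p = 0.034) that did not pass with TMM factors (adjusted p = 0.071) or in DESeq2 (adjusted p = 0.132). Among thioredoxins and peroxiredoxins, 3 of 11 tested genes were lower and 1 was higher, under all 3 scalings. TXNIP, an inhibitor of thioredoxin, had a log2 fold change of -0.13 (adjusted p = 5.3e-04), the peroxidases PRDX4 and PRDX6 had -0.12 (adjusted p = 0.0053) and -0.08 (adjusted p = 0.011), and the mitochondrial thioredoxin TXN2 had 0.11 (adjusted p = 0.0067). With a single vector, TXNIP passed with miR-10a (adjusted p = 0.0016) and not with miR-10b (adjusted p = 0.286), and PRDX4, PRDX6 and TXN2 passed with miR-10b and not with miR-10a. When both effects were tested against each other, 0 of the 11 passed in edgeR's quasi-likelihood test or in DESeq2, and 2 had an unadjusted p under 0.05. In the methionine cycle and cysteine breakdown list, 1 of 8 was higher: CDO1, which oxidises cysteine, at 0.08 (adjusted p = 0.047, 0.103 with TMM factors and 0.171 in DESeq2). In the ferroptosis and iron list, 1 of 12 was higher, POR, a flavoprotein that passes electrons to cytochromes P450, at 0.10 (adjusted p = 0.0076). Apart from SLC7A1 and STC2, each of the genes named from the lists had a log2 fold change smaller in size than that of SLC7A11 over both vectors. This order is that of the average. With miR-10b SLC38A2 (-0.45) also changed more than SLC7A11 (-0.39), and with miR-10a SLC7A1 (-0.13) changed less than SLC7A11 (-0.25).

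**Figure D4:**
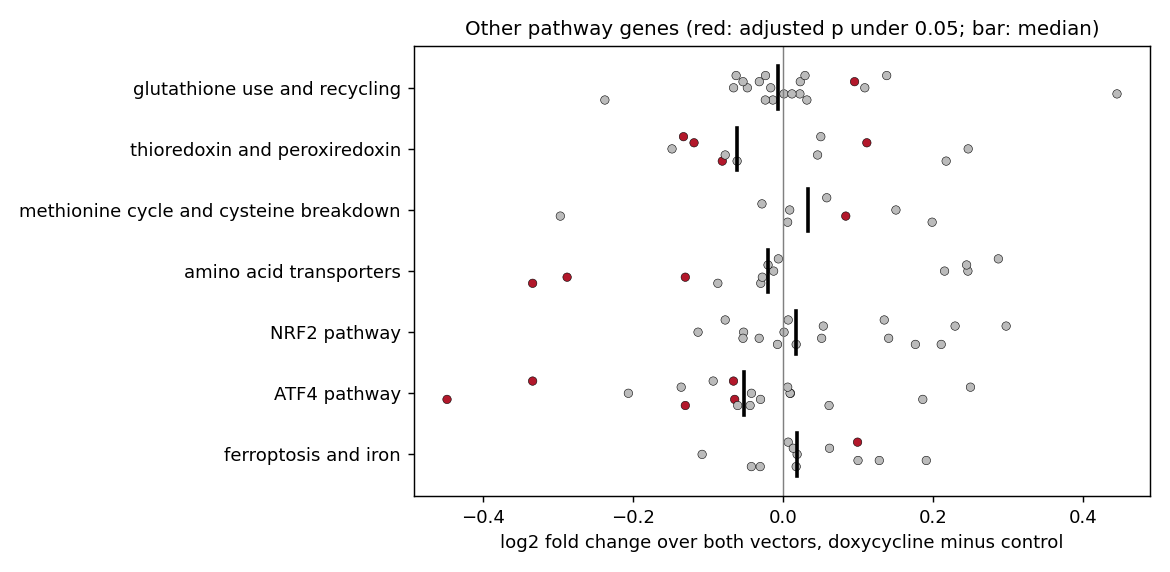
Log2 fold change over both vectors (x axis) of each tested gene in the 7 lists of other pathway genes. Red points passed an adjusted p of 0.05 in edgeR's quasi-likelihood test, grey points did not, and the vertical bar is the median of the list. The points that passed on the left belong to the amino acid transporter, ATF4 and thioredoxin lists, and no point of the NRF2 list passed.

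Genes with an 8mer for the miR-10a seed, the form found in SLC7A11, passed over both vectors as 44 lower (17.4%) and 8 higher of 253. Genes whose best match was a 7mer-A1, the form found in GCLM and GSS, passed as 49 lower (10.3%) and 46 higher of 477. For a 7mer-m8 the counts were 153 lower (11.3%) and 92 higher of 1358, for a 6mer 138 lower (6.98%) and 212 higher of 1976, and with no match 254 lower (4.87%) and 414 higher of 5213. Over all tested genes 6.22% were lower. These counts were made with total counts as the scaling. The split of all genes was 878 higher and 712 lower there, but 665 and 852 with TMM factors. The classes were not counted under other scalings or matched for 3′UTR length, and the cause of their differences was not tested. In log2 fold change the median was -0.03 with an 8mer, 0.0046 with a 7mer-A1 and 0.02 with no match. SLC7A11 (-0.32) and GCLM (-0.62) lay below the median of their classes, and GSS (0.01) close to it.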

How the data were processed

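RNA from 12 samples (4 groups, 3 replicates each) was sequenced after poly-A selection as 50-base single-end reads. The authors mapped the reads to hg19 and counted them on RefSeq transcripts, and they deposited raw counts per transcript with the transcript length. The submitters' processing notes name STAR, Subread and featureCounts. The kits given differ between the sources: the labels name miRNeasy and Illumina kits, the study's methods the NuGEN Ovation system. Each table held 51799 rows for 48101 transcripts, of which 1168 stood on several rows and were kept once. For each gene the transcript with the highest mean count was used.

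Groups and replicate numbers came from the labels. Nothing in them says that replicates came from separate transductions, so that p-values measure the spread between these samples. For the 11451 genes with a mean count above 10, edgeR's quasi-likelihood test (version 4.0.16, R 4.3.3) was applied to the counts (total count as library size, 4 group means in 1 fit, Benjamini-Hochberg adjustment, threshold 0.05). The contrasts were doxycycline minus control with each vector, their average and their difference, and miR-10b control minus miR-10a control. The code was tested on simulated data. Alternatives were TMM factors, DESeq2 1.42.0, no filter, a mean above 50 counts, a replicate block, a fit of 6 samples, summed transcripts and leaving out each sample. Sequence searches and figures used Python 3.11.15, pandas 2.3.3 and matplotlib 3.10.9.

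The members and lists were chosen with earlier results of these data known. All 9 members were named. From each list up to 4 genes past the threshold over both vectors with the smallest adjusted p were named, and 5 genes by their correlation with SLC7A11. ATF4, AARS, DPPA4 and DNMT3B were named after their values were seen. Replicate numbers did not pair the samples, as the closing section gives.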

Additional observations from a re-analysis of the deposited data

How the results depend on the processing

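SLC7A11 and GCLM stayed lower and past the threshold with miR-10a, with miR-10b and over both vectors under every alternative run, as did SLC7A11 in the uninduced cultures: all 130 of these alternative values kept their direction and their side of 0.05. When each sample was left out in turn, the log2 fold change over both vectors was -0.36 to -0.30 for SLC7A11 and -0.66 to -0.59 for GCLM. With the replicate block the number of members called was 2, 2, 2 and 0 with miR-10a, with miR-10b, over both vectors and for their difference, and no call changed. The same-numbered samples did not deviate together (r from -0.098 to 0.0074 in 6 pairs over 6976 genes, 0 of them above 0.1, and 0 doxycycline samples correlated best with their own number). A block could not be fitted to the uninduced comparison, where the block lies within the vector. The number of all genes called with miR-10a was 139, 272 with only the 6 samples of the contrast, and 78 to 268 with a sample left out. It was 78 without miR-10a doxycycline replicate 1, 84 without miR-10a control replicate 1, 81 without miR-10a control replicate 3 and 268 without miR-10b doxycycline replicate 2. For the vector difference it was 224, 343 with no filter, and 140 to 340 with a sample left out (140 without miR-10a control replicate 2, 340 without miR-10b doxycycline replicate 3). The cause was not tested. Estimates near 0 that changed sign, none of them past the threshold, were SLC3A2 with miR-10a (-0.031 with summed transcripts, -0.12 to 0.27 with a sample left out), GCLC with miR-10a (-0.24 to 0.13), GSS with miR-10a (-0.030 to 0.013), with miR-10b (-0.017 to 0.068), over both vectors (-0.0026 in DESeq2, -0.013 to 0.029) and for the vector difference (-0.0076 to 0.076), and GPX4 with miR-10b (-0.0027 in DESeq2, -0.12 to 0.16) and in the uninduced cultures (-0.069 to 0.31), the ranges being those with a sample left out. Depth limits SLC3A2, GCLC, GPX4 and CBS, and reads shared between transcripts leave GSR and CTH unmeasured.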
